A study of Mus musculus with 12 samples.

Results

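Celf1 to Celf6, Nova1, Nova2, Rbfox1 and Rbfox3 encode RNA-binding proteins that choose exons in neuronal transcripts, and their own RNAs are described here by the m1A peaks they carried in mouse striatum. The 10 genes were chosen by name and by the positions of their peaks, with earlier results of these data known. A peak counted for a gene when its summit lay inside the gene's RefSeq span on GRCm38. All 10 genes carried at least 1 peak, among 6656 genes with a peak and 49993 genes with a position in the reference. They held 197 of the 23413 peaks, and merging peaks that shared at least 1 bp gave 122 of the 13572 sites of the series. Sites are numbered along the chromosome within each gene. Since the peaks chose the genes, the presence of peaks is a description and not a result.

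The question of the study was at which transcripts TET1 acts on m1A, a methylated form of adenosine. Adult male mice with 2 floxed Tet1 alleles (Tet1 fl/fl) received virus in the caudate putamen (CPu), the dorsal part of the striatum. Control mice were given AAV-EGFP and knockout (KO) mice AAV-Cre-EGFP, so both groups carried the floxed alleles, an AAV vector and EGFP, and KO tissue is labelled Tet1 delta/delta. Tissue was taken 2 weeks after injection, and each genotype had 3 m1A pull-down libraries and 3 inputs. The promoter of the virus, the cells it reached and whether a library is 1 animal are not given in the sources used here. The p-values therefore measure only the spread between libraries, which may be technical. In tissue of mixed cells, fewer cells of a type and less RNA per cell cannot be told apart.

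Proteins of the CELF family bind GU-rich stretches and act on splicing, mRNA decay and translation. NOVA proteins bind clusters of YCAY and set the exon choice of many synaptic transcripts, and RBFOX proteins bind UGCAUG, activating or repressing an exon by the side on which they bind. Rbfox3 encodes NeuN, the usual nuclear marker of neurons. m1A blocks base pairing. It is well known in tRNA and rRNA, and in mRNA it has been mapped near start codons.

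The 6 lists came from pull-downs of unequal depth, 459332 to 1097292 tags used in controls and 1235247 to 2508102 in KO. Control 1 had the fewest tags and, per the file headers, kept every duplicate tag, while the others kept 1 per position. KO 2 had the most tags and the most peaks, 6947 against 3004 to 3782 in the other lists. Several counts that move by over 1.5 times without one of these libraries are given without it as well. The numbers of sites called in 2 or more lists, for Rbfox1 and for the members, include KO 2 throughout. Absence from a list means no call with those tags, and does not show that m1A was lacking. Markers of striatal projection neurons (Ppp1r1b, Pde10a, Adcy5 and 9 others) had a peak for 3 to 8 of 12 in each library. Oligodendrocyte markers did so for 1 to 7 of 8, and microglial markers for 0 to 2 of 7. Astrocyte markers did so for 0 to 2 of 8, endothelial markers for 0 to 2 of 5 and markers of cortical excitatory neurons for 1 to 2 of 5. Peaks do not measure transcript level, so this is no estimate of the cells present.

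Peaks were spread very unevenly over the members. Rbfox1 had 66 sites and 92 peaks, Celf2 18 sites, Celf4 14, Rbfox3 10, Celf5 and Nova2 5 each, and Celf1, Celf3, Celf6 and Nova1 1 each. The CELF family thus held 40 sites in 6 genes, the RBFOX pair 76 and the NOVA pair 6. Gene length differs as widely, from 18.5 kb for Celf3 to 1528 kb for Rbfox1. Per 100 kb of span the order changed: Celf5 had 21.3 sites, Nova2 12.7, Celf3 5.40, Celf4 5.06, Rbfox1 4.32, Celf6 3.25, Rbfox3 2.37, Celf2 2.1, Celf1 1.26 and Nova1 0.822. The median over all genes with a site was 4.07. Leaving out KO 2 lowered the numbers of the long genes most. Rbfox1 then had 22 sites (1.44 per 100 kb), Celf2 8 (0.934), Celf4 6 (2.17), Rbfox3 4 (0.948) and Celf6 0, while the other 5 members kept their counts. The CELF family then held 21 sites, the RBFOX pair 26 and the NOVA pair 6, and the median over genes was 3.72 per 100 kb.

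**Figure D1:**
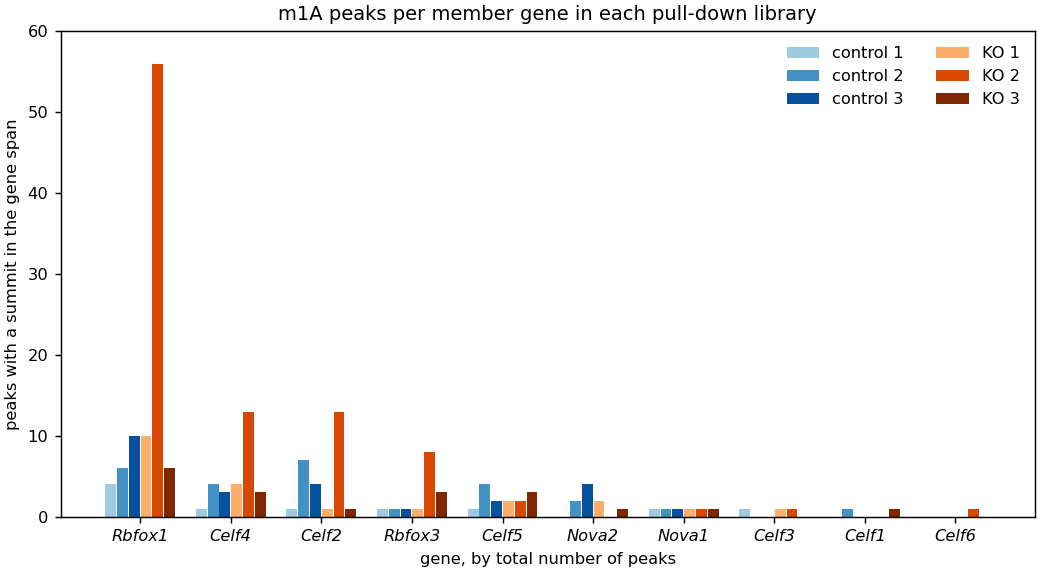
Bars give the number of peaks with a summit in each gene span (vertical axis, 0 to 60) in each of the 6 pull-down libraries, with genes ordered by their total number of peaks. KO 2 stands out with 56 peaks in Rbfox1 and 13 each in Celf2 and Celf4, while Nova1 has exactly 1 peak in every library.

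Celf2, Celf4, Celf5, Nova1, Rbfox1 and Rbfox3 had a peak in all 6 lists. That is 6 of 10 members, where 8.11% of all genes with a peak did, but the members were proposed with such peaks in view. Without control 1 and KO 2 the number with a peak in every remaining list was 7 of 10. With all 6 lists kept, the number was 4 for peaks of at least 4-fold enrichment. It was 5 for peaks with a −log10 q of at least 5, and 5 with lists of 3004 peaks each. In Rbfox3 the peak of control 1 was a weak one at a place of its own (3.73-fold), and in Celf2 it was the site described below. In Celf4 it was site 4 (8.64-fold), which also lay under the gene Gm3227. Celf3 was called in 3 lists, Nova2 in 4, Celf1 in 2 and Celf6 in 1.

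Nova1, a KH-domain splicing factor first known as a target of autoantibodies in a neurological disorder, carried a single site, 1 of the 2 member sites called in all 6 lists. It lay on chromosome 12 at chr12:46707537-46708474 on GRCm38, within the gene and 91.6% of the way along its span from the 5′ end. Whether it is in an exon, intron or UTR was not analysed here, since the reference used gives gene spans alone. The fold enrichment, which is the authors' pull-down value over the local background, was 24.7, 37.0 and 34.4 in controls 1, 2 and 3. In KO 1, 2 and 3 it was 16.4, 15.7 and 16.2. The 3 control values all lay above the 3 KO values, and the groups did not overlap.

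The Nova1 pileup, the tag coverage at the summit, was 56, 188 and 138 in controls and 130, 158 and 90 in KO, where the groups did overlap. These values belong to single lists of different depth, so the lower KO fold enrichment is a description with no test. Among the 402 sites called in all 6 lists, 16.2% had a lower fold enrichment in every KO list than in every control list and 2.74% a higher one, so this order was not rare. Within its own list the Nova1 value stood at percentiles 98.5 to 99.6 in controls and 95.5 to 96.4 in KO. The Nova1 summits of the 6 libraries fell within 34 bp of each other, against a median of 70 bp for sites in all 6 lists. Its peaks were 788 to 907 bp long, at or above percentile 98.9 of each list.

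Nova2, the paralogue more prominent in cortex, had 5 sites on chromosome 7, none called in KO 2 or control 1. Site 2 (chr7:18934660-18934932) was called in 4 lists, with fold enrichments of 10.6 in control 2, 12.0 in control 3, 8.02 in KO 1 and 22.1 in KO 3. The highest and the lowest value were both KO libraries. Site 3 lay 322 bp further on (chr7:18935007-18935261) and was called in controls 2 and 3 alone, with fold enrichments of 12.7 and 12.8. The other 3 Nova2 sites were each called in 1 library.

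Celf5, a brain-rich CELF protein, held the other site called in all 6 lists. Site 3 (chr10:81479269-81479643) had fold enrichments of 7.43, 7.91 and 10.3 in controls 1, 2 and 3 and of 7.17, 19.1 and 7.75 in KO 1, 2 and 3. The genotypes overlapped, and KO 2 alone stood high, at percentile 97.8 of its list against 81.8 or below in the other 5. The pileups of site 3 were 8, 13 and 15 in the controls and 9, 44 and 17 in KO, in the same order. By median fold enrichment it ranked 278 of the 402 sites called in all 6 lists. Site 4 lay 421 bp away (chr10:81479732-81480142) and was called in control 2 (9.48) and in KO 1, 2 and 3 (9.50, 27.8 and 6.89). Both sites fell 12.3% to 14.1% along the Celf5 span. Site 1 (chr10:81466841-81467205) was called in controls 2 and 3 alone, with fold enrichments of 3.71 and 7.65.

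Celf4, a CELF protein that acts on neuronal excitability and synaptic mRNAs, had 14 sites on chromosome 18, of which 9 were called in 1 library and 8 in KO 2 alone. Sites 9, 10 and 14 were each called in controls 2 and 3 and in all KO libraries, and missed in control 1. Site 10 (chr18:25626646-25627229) had the highest single fold enrichment of any member peak, 47.4 in KO 1. Its values were 33.1 and 31.8 in controls 2 and 3, and 47.4, 21.9 and 31.5 in KO 1, 2 and 3. The controls lay inside the KO range, and in every library that called it the site was at or above percentile 98.6 of the list. Its 5 summits fell within 12 bp. Site 9 (chr18:25611178-25611661) had fold enrichments of 19.8 and 17.9 in controls and of 31.5, 22.6 and 22.3 in KO.

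At Celf4 site 9 every KO value lay above both control values. Of the 331 sites called in every list but control 1, 12.7% showed this order and 11.8% the opposite, so it was not rare. Site 14 (chr18:25753484-25754025), at the high-coordinate end of the Celf4 span, had 9.68 and 9.67 in controls and 3.92, 22.6 and 4.66 in KO. There KO 2 lay above and KO 1 and KO 3 below the controls. The 3 sites of Celf4 therefore showed 3 different orders of the same libraries. Sites 4 to 7 also lay under Gm3227, a gene inside the Celf4 span, so their gene is uncertain.

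Celf2, the CELF protein with the longest gene, had the only member site that every control and none of the KO libraries called. Site 13 (chr2:7076177-7076387) had fold enrichments of 3.40, 4.86 and 7.21 in controls 1, 2 and 3. Of all sites, 0.796% showed this, and 1 of 122 member sites is 0.820%, close to that background. The site combined a very high pileup (281, 126 and 122, all at or above percentile 98.8 of their lists) with a low fold enrichment (percentiles 0.645, 15.7 and 50.2). The pileup of 281 is that of control 1, which kept every duplicate tag, so it cannot be set against the others. The summits of site 13 fell within 10 bp. With peaks of at least 4-fold enrichment it was no longer called in control 1, and no member site was then in the 3 controls alone. Without control 1, 5 member sites were in the remaining controls alone.

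Celf2 site 3 (chr2:6582908-6583411), 94.9% along the span, was the one most widely shared. Fold enrichments were 7.25 and 5.20 in controls 2 and 3 and 6.82, 14.8 and 11.2 in KO 1, 2 and 3. KO 2 and KO 3 lay above both controls and KO 1 between them. Of the 18 Celf2 sites, 10 were called in KO 2 alone. Site 10 (chr2:6880941-6881146) was called in controls 2 and 3 alone, with 6.91 and 8.55.

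Celf1, the ubiquitous founder of the family, had 1 site (chr2:90940582-90940924), called in control 2 (6.55) and KO 3 (9.39). Its summits lay a median of 367 bp after the listed start of the gene. Celf6 had 1 site (chr9:59589824-59590071), called in KO 2 alone with a fold enrichment of 5.73. Celf3, a brain CELF protein, had 1 site (chr3:94478373-94478882), called in control 1 (6.74), KO 1 (5.16) and KO 2 (3.81). The summits spread over 344 bp, with that of control 1 apart from both KO summits, so these may not be the same place. The span of Riiad1 covers it too.

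The Celf3 site is the one member site that reached well into a promoter window, the 250 bases before and 50 after a listed start. The window of the start at position 94478466 (chr3:94478216-94478515, plus strand, RefSeq on GRCm38.p6) is shown for that reason, with the 143 bases covered by the merged site in capitals. The peaks of KO 1 and KO 2 reached into the window, and that of control 1 began after it. Another listed start of Celf3, at position 94478335, lay before the whole site. The covered bases before the shown start therefore lay after that other start.
Celf3 start window: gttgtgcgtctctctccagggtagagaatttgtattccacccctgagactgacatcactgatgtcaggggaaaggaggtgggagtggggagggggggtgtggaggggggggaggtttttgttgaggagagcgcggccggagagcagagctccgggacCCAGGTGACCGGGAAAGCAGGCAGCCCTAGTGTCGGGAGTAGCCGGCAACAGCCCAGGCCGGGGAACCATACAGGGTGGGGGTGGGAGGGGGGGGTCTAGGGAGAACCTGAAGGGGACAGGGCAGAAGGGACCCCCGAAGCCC
G and C made up 64.3% of the window and 68.5% of the covered part. It held neither TGCATG, the RBFOX motif, nor GTTCNA, a form of the tRNA T-loop motif linked to m1A, on either strand. Over 32851 windows of that length, 11.0% held TGCATG and 31.3% GTTCNA. Of the 25 windows listed for 9 members (Celf4 has none in the table), 0 held TGCATG and 4 held GTTCNA, 3 of them in Celf2 and 1 in Celf5. A match or its absence in these letters says nothing of binding or methylation.

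Few member sites lay close after a start. For members with a listed start, 7 of 108 sites (6.48%) had their median summit within 1000 bp after one, against 23.9% of 10212 sites over all genes with a listed start. Without KO 2 the numbers were 6 of 47 (12.8%) and 32.2% of 6928. Among sites called in 2 or more lists the numbers were 3 of 30 (10.0%) and 38.5% of 3204. The 7 sites were in Celf1, Celf3, Celf5 (2 of them), Celf6, Nova2 and Rbfox1. Rbfox1 thus held 66 of the 108 sites but 1 of the 7. Celf4 has no listed start and was left out. Its sites 1 and 14 lay 0.319% and 99.7% along its span from the low-coordinate end. The shares near a start are descriptions with no test, the table does not list every start, and long genes leave more room away from a start.

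**Figure D2:**
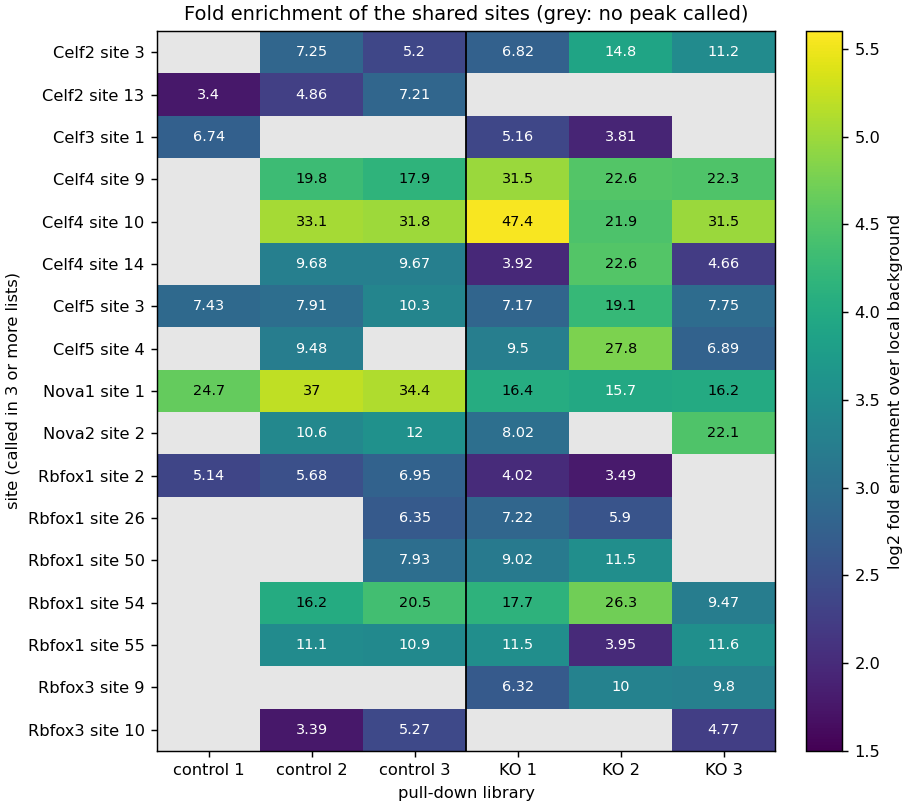
Each row is a member site called in 3 or more lists and each column a library, with control on the left of the black line. Colours give the log2 of the fold enrichment, the printed values are the fold enrichment itself, and grey marks a library that did not call the site. Nova1 site 1 and Celf5 site 3 are filled across, control 1 is mostly grey, and Celf4 site 10 reaches 47.4.

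Rbfox1, a neuronal and muscle splicing regulator with a very long gene, had more sites than any other gene of the series. Its 66 sites ranked 1 of 6656 genes, while its span ranked 17. The number of Rbfox1 peaks was 4, 6 and 10 in controls 1, 2 and 3 and 10, 56 and 6 in KO 1, 2 and 3. KO 2 was far above the rest, and the other 5 libraries overlapped between genotypes. KO 2 alone called 44 of the 66 sites (66.7%), against 32.9% of all sites and 52.5% of the 1434 sites in genes over 500 kb. Without KO 2, Rbfox1 had 22 sites and still ranked 1.

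Of the Rbfox1 sites, 14 were called in 2 or more lists, which is 21.2% against 31.0% of all sites and 17.2% of those in genes over 500 kb. KO 2 is counted in these shares, and the 44 sites of KO 2 alone are part of the 66. No Rbfox1 site was called in all 6. Sites 2, 54 and 55 were called in 5 lists each. Site 2 (chr16:5911666-5911890), 1.76% along the span, was missed in KO 3 and had fold enrichments of 5.14, 5.68 and 6.95 in controls and 4.02 and 3.49 in KO 1 and KO 2. Both KO values lay below all 3 controls, as they did at 31.1% of the 45 sites called in every list but KO 3.

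Rbfox1 site 54 (chr16:7012099-7012561) was missed in control 1 and had 16.2 and 20.5 in controls 2 and 3 and 17.7, 26.3 and 9.47 in KO 1, 2 and 3. The controls lay within the KO range. Site 55 (chr16:7026648-7027619), a broad one of 972 bp, had 11.1 and 10.9 in controls 2 and 3 and 11.5, 3.95 and 11.6 in KO 1, 2 and 3, with KO 2 low at a narrower peak of 171 bp. Control 3 called it as 2 peaks. Both sites lay 73.8% to 74.8% along the span, the fifth of the span with the most sites: 24 of the 66 sites, and 5 of the 14 in 2 or more lists, fell between 60% and 80% of it. Another 23 lay between 20% and 40%, of which 3 were in 2 or more lists. Without KO 2 the 22 sites were spread more evenly, with 3, 4, 5, 7 and 3 in successive stretches of 20% of the span.

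**Figure D3:**
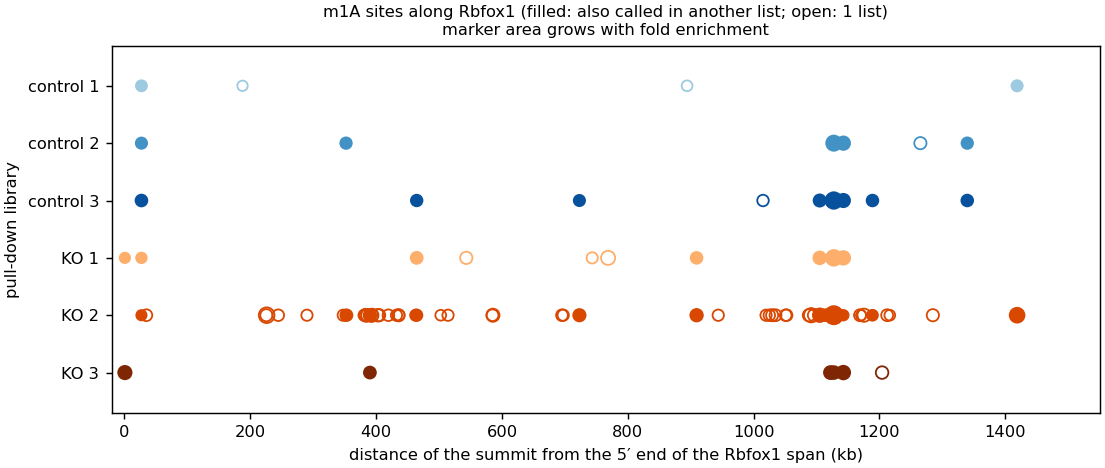
Positions of Rbfox1 sites by library, as the distance in kb of the median summit from the 5′ end of the gene span. Filled markers are sites called in another list too and open markers sites of 1 list, and marker area grows with fold enrichment. The KO 2 row holds 56 markers, most of them open, and sites 54 and 55 appear as filled markers beyond 1100 kb in every row but control 1.

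Genes whose number of peaks per library was most like that of Rbfox1 were Nrg1, a neuregulin, Atp2b2, a plasma membrane calcium pump, and Anks1b, a postsynaptic protein. Likeness was the sum over the 6 libraries of the absolute difference in number of peaks, which was 50, 52 and 53. These are large beside the 92 peaks of Rbfox1, so no gene was close. Nrg1 (1084 kb) and Anks1b (1100 kb) are long and also had most peaks in KO 2, with 25 and 16. Atp2b2 had 10 in KO 2 and 8 to 10 in 4 other libraries.

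Rbfox3 held the only member site that every KO library and none of the controls called. Site 9 (chr11:118887771-118888053) had fold enrichments of 6.32, 10.0 and 9.80 in KO 1, 2 and 3, pileups of 20, 41 and 25, and lay 5.61% along the span from its 5′ end. The summits fell within 47 bp. Of all sites, 1.41% had this pattern, and 1 of 122 member sites is 0.820%, so the count was not above the background. Without KO 1, 4 member sites were in the remaining KO libraries alone, and without control 2, KO 2 or KO 3 there were 2. The fold enrichments stood at percentiles 37.7, 80.3 and 75.5 of their lists, well inside the usual range. The controls used fewer tags than every KO library, and the part of depth in this call was not tested.

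Rbfox3 site 10 (chr11:118909348-118909539), 0.510% along the span, was called in controls 2 and 3 (3.39 and 5.27) and KO 3 (4.77). Site 3 (chr11:118703489-118703811) was called in KO 2 and KO 3 alone, with fold enrichments of 18.8 and 8.59. In all, 6 of the 10 Rbfox3 sites were called in KO 2 alone. The number of Rbfox3 peaks was 1 in each control and 1, 8 and 3 in KO 1, 2 and 3.

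**Figure D4:**
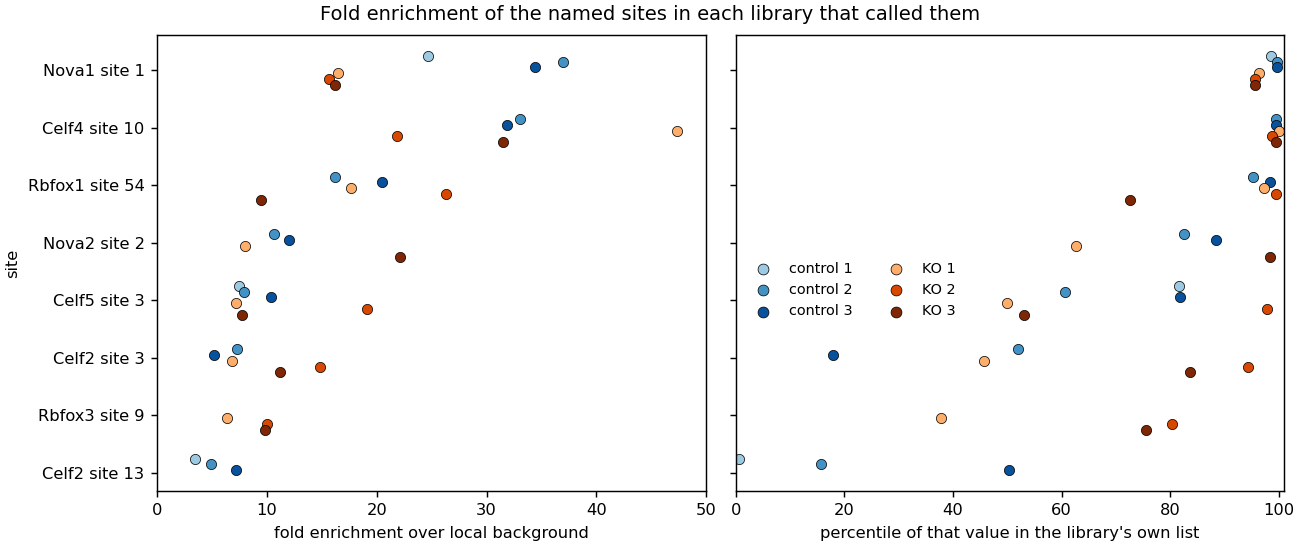
The fold enrichment of 8 named sites (left) and the percentile of that value in the library's own list (right), with 1 point for each library that called the site. Nova1 separates the controls, 24.7 to 37.0, from the KO libraries, 15.7 to 16.4, on the left. On the right all 6 points lie at or above percentile 95.5, with the controls (98.5 to 99.6) again above KO (95.5 to 96.4).

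Between genotypes, the total of member peaks overlapped. Controls 1, 2 and 3 had 10, 26 and 25 member peaks and KO 1, 2 and 3 had 22, 95 and 19. The means were 20.3 ± 8.96 (SD, n = 3) and 45.3 ± 43.0, and KO 2 made the difference: without it KO had a mean of 20.5. As a share of the list, members made up 0.315% to 0.832% of control peaks and 0.582% to 1.37% of KO peaks. Leaving out Rbfox1 the shares were 0.189% to 0.581% and 0.317% to 0.561%. The groups overlapped in each of these measures.

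No member had a number of peaks that separated the genotypes. Over all genes with a peak, 2.42% had more in every KO list than in every control list and 0.947% fewer. The exact two-sided permutation test of the number of peaks per gene gave members p-values from 0.4 to 1, all 1 after Benjamini-Hochberg adjustment over 6656 genes. With 3 libraries against 3 it cannot go below 0.1, so it could make no call.

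Besides the 2 sites of a single genotype, some were called in 2 libraries of it and none of the other. Controls 2 and 3 shared 4 such sites, Celf2 site 10, Celf5 site 1, Nova2 site 3 and Rbfox1 site 65, which is 3.28% of the members' sites against 2.73% of all sites. KO libraries had 5, Rbfox1 sites 1, 16, 38 and 53 and Rbfox3 site 3, or 4.10% against 5.24%. All but Rbfox1 site 1 include KO 2. Both shares were near those of the whole series.

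**Figure D5:**
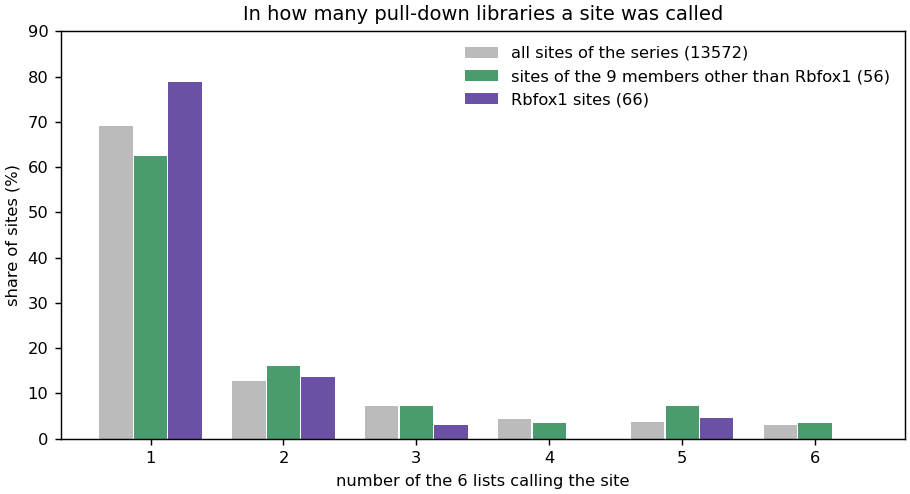
Share of sites (vertical axis, in percent) called in 1 to 6 of the lists, for all 13572 sites, the 56 sites of the 9 members other than Rbfox1 and the 66 of Rbfox1. Sites of 1 list made up 69.0%, 62.5% and 78.8% in that order.

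In the number of lists calling a site the members resembled the series. The lists that called them differed from those of all sites. For KO 2 alone and for KO lists only, the shares were nearer those of genes over 500 kb. Rbfox1 held 44 of the 69 sites of KO 2 alone and 52 of the 82 sites of KO lists only. Of the members' 122 sites, 35 (28.7%) were called in 2 or more lists, against 31.0% of all sites, and 17 (13.9%) in 3 or more, against 18.3%. Called in all 6 were 2 (1.64%), against 2.96%. Without control 1, 8 of 119 member sites (6.72%) were called in all 5 remaining lists, against 6.40% of all sites. KO 2 alone called 69 (56.6%), against 32.9% of all sites and 52.5% of those in genes over 500 kb. Without Rbfox1 it alone called 44.6% of the remaining 56. Control 1 alone called 3 (2.46%), against 15.6% of all sites and 21.5% of those in genes over 500 kb. Some KO list and no control list called 82 (67.2%), against 51.7% of all sites and 62.1% of those in genes over 500 kb. Some control list and no KO list called 16 (13.1%), against 27.5% and 26.3%. Without Rbfox1, sites of KO lists only were 53.6% and those of control lists only 19.6%. Without KO 2 the members had 53 sites. Where sites were shared, summits agreed as in the series, with a median spread of 44 bp over 35 sites against 42 bp over 4207.

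The other splicing regulators, a list of 75 genes of the hnRNP, SR, MBNL, ELAVL, PTBP, KHDRBS and related families, give the setting. Of these, 56 had a peak in any list, 74.7% of the list, where 26.2% of all protein-coding genes did. A peak in all 6 lists was found for 9, or 12.0%, against 2.30% of protein-coding genes. As a share of those with any peak the 9 were 16.1%, against 8.11% of all genes with a peak. Without control 1 the number in every remaining list was 14. Transcript level was not measured here, and its part in these shares was not tested. By library, 20, 34 and 32 of the 75 had a peak in controls 1, 2 and 3 and 29, 35 and 30 in KO.

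Among them were Mbnl2, a muscleblind protein, Khdrbs1 (Sam68), the hnRNP genes Hnrnpa2b1, Hnrnpl, Hnrnpll and Hnrnpu, the SR protein gene Srsf5, and Snrnp70, of the U1 particle. Their peaks ranged from 6.75 to 11.7-fold in Hnrnpll and from 3.12 to 27.1-fold in Srsf5. Snrnp70 had 1, 6 and 5 peaks in controls and 5, 6 and 5 in KO, over 6 sites. Rbfox2, the RBFOX gene outside the 10, was called in every library but control 1, with fold enrichments of 3.50 to 10.4.

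Of the 56 other regulators with a peak, 0 had peaks in every KO library but in none of the controls, where 1.74% of genes with a peak did. A single gene, Zfp36l1, an AU-rich element binding protein of mRNA decay, was called in the 3 controls alone, with fold enrichments of 5.24 to 7.40, where 0.856% of genes with a peak were. In any KO library and no control there were 10 of the 56 with a peak, and 10 the other way, where 34.1% and 22.4% of all genes with a peak were. Most of the 10 genes of KO libraries were called in KO 2 alone. Without KO 2, the number of other regulators with a peak was 48. No member and no other regulator was thus called in KO alone at the level of the whole gene in all 3 libraries.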

How the data were processed

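The members, lists and tests were chosen with earlier results of these data known. m1A pull-downs and inputs were made from fragmented total RNA depleted of rRNA, per the labels' protocols. Per the submitters' processing notes, reads were handled with cutadapt 2.8 and HISAT2 2.1.0 on GRCm38. Per the file headers, MACS2 2.2.6 was run per library, with the matching input as background, a q-value limit of 0.01 and an extension of 150 bp. Every duplicate tag was kept in control 1 and at most 1 per position elsewhere. The deposited lists give for each peak the pileup (a signal), the −log10 of its p-value and q-value, and the fold enrichment, a ratio over the local background that the authors' caller computed. They are the authors' values, described per site and ranked by a percentile within each list. Where values of several lists are set side by side, their order is a description with no test, since depth differs between lists.

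Here, with Python 3.11.15 and pandas 2.3.3, a peak was given to every RefSeq GRCm38.p6 gene span holding its summit (summits in more than 3 spans were left out), and peaks sharing at least 1 bp were merged into sites. Named were all members, every site called in all 6 lists or in 1 genotype alone, and for each member the site called by most lists. Other sites named were chosen after their values were seen. Of the other splicing regulators, those with a peak in all 6 lists or in 1 genotype alone were named, except for a result that is not reported here. Exons were not used here. Merging, placing and the permutation test were checked on simulated data, with sites far apart in gene spans that did not overlap. Close neighbouring sites and nested genes were not simulated. Alternatives were a −log10 q of at least 5, a fold enrichment of at least 4, 2 other ways of merging, any overlap with the span, lists of 3004 peaks each, and leaving out libraries.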

Additional observations from a re-analysis of the deposited data

How the results depend on the processing

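Of 270 values under the alternatives, 253 kept within 1.5 times the main count or within 1 SD of the value, 14 moved and 3 reversed. For fold enrichments the SD was that between lists. For KO minus control differences it was the larger genotype SD, 43.0 for member peaks, so a fall from 25.0 to 0.167 counted as kept. Many values are fold enrichments of named sites that a setting left untouched, so the number kept does not measure robustness. No paired analysis was possible because no model is fitted to peak lists and nothing ties libraries of the same number. Without control 1 and KO 2 the members had 48 sites (122 with all lists), 9 in all remaining lists, 2 in KO alone and 5 in control alone. With peaks of at least 4-fold enrichment 0 member sites were in control alone. Leaving out 1 library in turn gave 53 (without KO 2) to 120 sites, 2 to 8 sites in all remaining lists (8 without control 1), 1 to 4 in KO alone (4 without KO 1) and 1 to 5 in control alone (5 without control 1). The KO minus control difference in member peaks per library was 25.0, and 0.167 to 38.2 with 1 library left out. Without Rbfox1 it was 7.67, and −1.17 (without KO 2) to 12.3. Without control 1 and KO 2 it was −5.00 both with and without Rbfox1. The other regulators with a peak in every list numbered 9, 17 without control 1 and KO 2, and 9 to 14 with 1 library left out (14 without control 1). The fold enrichment of Celf6 has no value without KO 2 or with lists of equal length. Fewer libraries make "every list" easier to meet, and depth limits every call of absence.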

Other observations

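Pairs of member sites lay close together in several genes. Summits of neighbouring sites were 322 bp apart in Nova2 (sites 2 and 3), 421 bp in Celf5 (sites 3 and 4) and 430 bp in Celf2 (sites 3 and 4). In Celf5 both sites were called in 4 or more lists, whereas Celf2 site 4 was called in KO 2 alone beside a site of 5 lists. Rbfox1 held 5 pairs within 1000 bp, at 292 to 788 bp, each made of sites called in KO 2 alone. Celf4 sites 5 and 6 (531 bp) and Celf2 sites 7 and 8 (779 bp) were also pairs called in KO 2 alone.

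The members' median fold enrichment was near the middle of most lists, at percentiles 50.4 to 62.1 in 5 libraries, and 75.5 in KO 3. Pileup and fold enrichment ranked sites differently. Celf2 site 13 had a pileup percentile of 99.5 in control 1, which kept every duplicate tag, and a fold enrichment percentile of 0.645 there. Celf4 site 10 in control 3 had 88.9 and 99.5.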
